A study of Mus musculus with 31 samples.

Results

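Wnk2 and 7 other genes of the WNK pathway were followed in single mouse embryos at the 2-cell stage, across all 31 embryos of the series. The 8 genes, of 20544 gene symbols in the count table, were the kinases Wnk1, Wnk2, Wnk3 and Wnk4, the kinases Oxsr1 and Stk39, and the transporters Slc12a2 and Slc12a4. They were chosen by name, with the difference of Wnk2 between the groups already known.

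WNK kinases ("with no lysine") are serine/threonine kinases that lack the catalytic lysine found at the usual place in other kinases, and chloride bound in the catalytic site holds them inactive. When intracellular chloride falls or a cell shrinks, WNK kinases phosphorylate OXSR1 (OSR1) and STK39 (SPAK). These kinases in turn activate the sodium-driven cotransporters that bring chloride into the cell, such as NKCC1, the product of Slc12a2, and inhibit the potassium-chloride cotransporters that let it out, such as KCC1, the product of Slc12a4. Early mouse embryos are sensitive to osmolarity and take up organic osmolytes such as glycine to hold their volume.

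The RNA of 16 control- and 15 SER-generated embryos was sequenced, 1 embryo per library. Sperm came from the cauda epididymides of C57BL/6J males aged 12 to 14 weeks, and oocytes from superovulated CD1 females aged 8 to 10 weeks. One cauda of a male was placed in IVF-TYH +/+ medium (control) and the other in IVF-TYH −/− medium, which lacks glucose and pyruvate (SER, Sperm Energy restriction and Recovery), until sperm in the latter lost motility after 15 to 45 min. Both were then returned to IVF-TYH +/+ and left with the oocytes for 4 h. All embryos were cultured in KSOM and collected at 32 h post-insemination (HPI). The embryos are F1 hybrids by these parents, and the treatment was given to the sperm and not to the embryo. The paper describes independent batches of embryos. Which embryos shared parents or a batch is not given in the labels. The embryos may therefore not be independent, and p-values measure only the spread between these embryos.

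Library totals ran from 532945 to 2085222 counts in control- and from 642321 to 3088396 in SER-generated embryos. The medians were 955806.5 and 1375557, so counts of 0 and counting error are not on an equal footing between the groups. The stage label was set against marker genes. Of 24 transcripts of zygotic genome activation 20 were in the table, and all 20, Zscan4d and Zfp352 among them, had counts in at least 21 of the 31 embryos. Cumulus markers were low, with a sum of 82.7 to 1597 CPM in the control and 60.2 to 505 CPM in the SER group, most of it from Nr5a2, which was counted in all 31 embryos, and in 1 embryo from Cyp11a1 (1295 CPM). Has2, Ptx3, Amh, Fshr and Lhcgr were at 0 in the median embryo. Cyp11a1, Star and Kitl had counts in 23, 21 and 19 of the 31 embryos, at medians of 2.73, 0.986 and 1.40 CPM. Sperm markers summed to 121 to 336 CPM in the control and 92.7 to 355 CPM in the SER group, mostly from Odf2. Prm1, Tnp1 and Akap4 were at 0 in the median embryo. Prm2 and Ldhc had counts in 22 and 28 embryos, at medians of 2.25 and 7.80 CPM, and reached 23.4 and 61.5 CPM. The part of these transcripts in the results was not tested.

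Control embryo 4 and SER embryo 15 stood apart from the other 29 embryos. Their zygotic scores, the mean log2(CPM + 1) over the zygotic transcripts, were 1.09 and 1.81, against 3.22 to 5.53 (median 4.54) in the other 29. Their oocyte scores, over 19 transcripts of the growing oocyte, were 7.79 and 7.78, against 5.35 to 7.32. Values are given with and without these embryos where they decide a result.

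The genes lie apart in the genome. On GRCm38, with GENCODE M21, Wnk1 is on chromosome 6 (119923969 to 120038672, minus strand), Wnk2 on chromosome 13 (49036303 to 49148014, minus strand), Wnk3 on chromosome X (151198078 to 151320152, plus strand) and Wnk4 on chromosome 11 (101260567 to 101277409, plus strand). Oxsr1 is on chromosome 9 (119238432 to 119322427, minus strand) and Stk39 on chromosome 2 (68210445 to 68472268, minus strand). Slc12a2 is on chromosome 18 (57878678 to 57946821, plus strand) and Slc12a4 on chromosome 8 (105943590 to 105966097, minus strand). Antisense genes on the opposite strand overlap 523 of 10589 exon bases of Wnk3, 306 of 4148 of Wnk4 and 361 of 4279 of Slc12a4. The strand setting of the counting is not given in the sources used here, so reads of these antisense genes could not be told apart from those of the 3 members.

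The sequences upstream of Wnk1, Wnk2 and Oxsr1 are shown because these are the most abundant WNK kinase, the WNK kinase whose groups lay farthest apart, and the more abundant of the kinases that WNK kinases act on. Each is the stretch of 200 bases from 250 to 51 bases before the RefSeq start of the gene, on the minus strand of GRCm38.p6, at chr6:120038706-120038905, chr13:49148379-49148578 and chr9:119322478-119322677. Capitals mark GC boxes (GGGCGG on either strand).

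Wnk1: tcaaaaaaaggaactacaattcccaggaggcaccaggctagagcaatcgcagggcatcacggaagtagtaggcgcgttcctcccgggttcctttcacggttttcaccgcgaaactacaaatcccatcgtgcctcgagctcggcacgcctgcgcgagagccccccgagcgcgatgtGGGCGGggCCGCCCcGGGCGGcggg
Wnk2: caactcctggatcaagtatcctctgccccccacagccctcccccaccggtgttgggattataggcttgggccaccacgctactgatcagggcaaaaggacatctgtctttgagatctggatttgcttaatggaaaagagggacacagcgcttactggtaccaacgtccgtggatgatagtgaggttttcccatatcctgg
Oxsr1: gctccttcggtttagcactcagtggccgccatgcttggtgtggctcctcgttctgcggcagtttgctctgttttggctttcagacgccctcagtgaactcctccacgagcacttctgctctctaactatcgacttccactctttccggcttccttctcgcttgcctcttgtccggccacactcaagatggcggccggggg

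The Wnk1 window held 3 GC boxes and was 63.5% G and C, against a median of 51.5% over 32851 RefSeq windows of the same length. The windows of Wnk2 (52.5%) and Oxsr1 (58.0%) held no GC box. A GC box was found in 24.6% of all windows. Neither CCAAT (28.4% of all windows), TATAAA (9.14%) nor the cAMP response element TGACGTCA (0.828%), each searched on both strands, was found in any of the 3. On the minus strand, the RefSeq start of Wnk2 (49148328) lies upstream of its start in GENCODE (49148014). Its window is therefore farther from the GENCODE start than from the RefSeq start. Windows were taken for 7 of the 8 genes, and that of Slc12a2, on chromosome 18, was not examined.

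Wnk1 was the most abundant of the 8 genes for its length in these embryos, and Slc12a2 came next. The level per kb of exon, over all 31 embryos, was 31.9 ± 11.3 CPM per kb (SD, n = 31) for Wnk1, 16.2 ± 10.2 for Slc12a2, 6.77 ± 3.36 for Wnk2, 6.38 ± 3.45 for Oxsr1, 2.49 ± 2.34 for Stk39, 1.34 ± 1.29 for Wnk3, 0.777 ± 0.777 for Wnk4 and 0.494 ± 0.627 for Slc12a4. Of the 7 neighbouring pairs in this order, 5 had a mean difference at an adjusted p under 0.05 by sign-flip permutation test. The order itself was taken from these same levels. These are levels scaled to exon length, and a Smart-seq3 library, with its additional reads at the 5′ end, is not even over a transcript.

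Wnk1 was above Slc12a2 in 27 of 31 embryos, by 1.39 ± 1.39 (SD) on the log2 scale of level per kb. The adjusted p was 7e-05 (sign-flip permutation test with 100000 resamples, 2-sided, Benjamini-Hochberg). Slc12a2 was above Wnk2 in 24 embryos, by 0.90 ± 1.66 (SD; permutation test, adjusted p = 0.00898). Wnk2 was above Oxsr1 in 17 of 31 embryos. This mean log2 difference of 0.37 ± 1.56 (SD) did not pass (permutation test, adjusted p = 0.211). Oxsr1 was above Stk39 in 23 embryos, by 1.504 ± 2.56 (SD; permutation test, adjusted p = 0.00898). Stk39 was above Wnk3 by 0.78 ± 1.95 (SD) and Wnk3 above Wnk4 by 0.89 ± 2.08 (SD; permutation tests, adjusted p = 0.0435 for both). Wnk4 and Slc12a4, the lowest members, differed by 0.73 ± 2.25 (SD), which did not pass (permutation test, adjusted p = 0.0935). These tests are of the mean difference, and single embryos varied widely around it. Without control embryo 4 and SER embryo 15, the steps from Wnk1 to Slc12a2 (1.10), from Slc12a2 to Wnk2 (1.22) and from Oxsr1 to Stk39 (1.95) still passed the threshold, while those from Stk39 to Wnk3 and from Wnk3 to Wnk4 did not (permutation tests, adjusted p = 0.0816 for both).

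**Figure D1:**
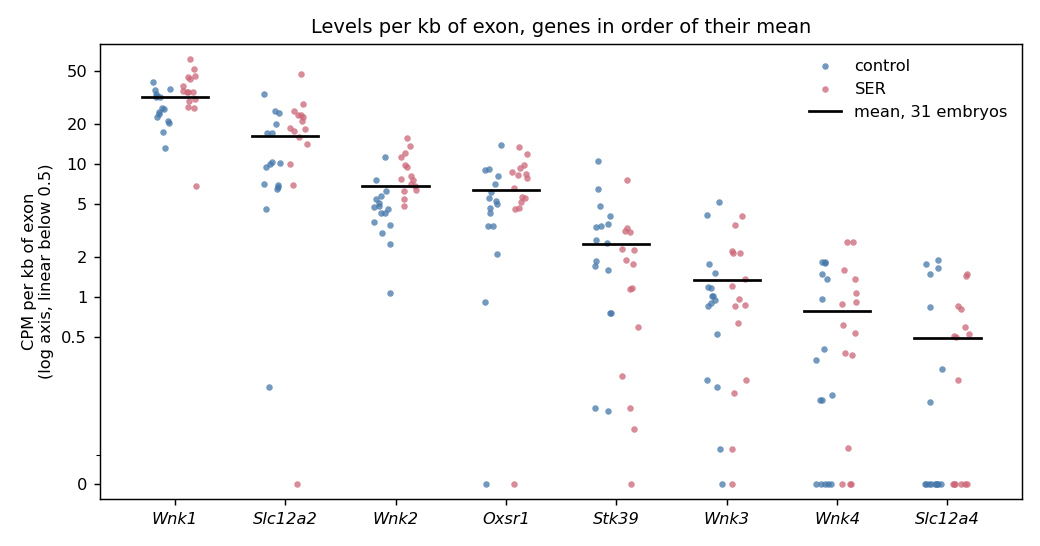
Level of the 8 genes in CPM per kb of exon (vertical axis, log scale, linear below 0.5), 1 point per embryo, 16 control (blue) and 15 SER (red), with the mean over 31 embryos as a black line. Wnk1 and Slc12a2 lead with means of 31.9 and 16.2 CPM per kb, Wnk2 and Oxsr1 share a level near 6.77 and 6.38, and Slc12a4 is at 0 in 15 of 31 embryos.

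Among the WNK kinases, Wnk1 made up 77.8 ± 7.4% (SD, n = 31) of the summed level per kb, Wnk2 16.8 ± 7.5%, Wnk3 3.56 ± 3.63% and Wnk4 1.88 ± 1.88%. The share of Wnk2 ran from 7.04% in control embryo 4 to 47.1% in SER embryo 15, and from 7.74% to 27.1% in the other 29 embryos. In SER embryo 15, the Wnk1 share was the lowest of all, at 50.3%. Oxsr1 made up 68.9 ± 28.3% of the sum of Oxsr1 and Stk39. Slc12a2 made up 94.2 ± 13.8% of the sum of Slc12a2 and Slc12a4 in the 30 embryos with a count of either.

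Wnk1, the most widely expressed WNK kinase, was counted in all 31 embryos. Its level was 300 CPM in the lowest, 595 in the median and 953 in the highest of the 16 control-generated embryos. In the 15 SER-generated embryos, the lowest was at 157, the median at 800 and the highest at 1414 CPM. The groups overlapped over most of their range, with 5 SER-generated embryos above the highest control and the lowest value of all in SER embryo 15. Means were 627 ± 178 CPM (SD, n = 16) and 835 ± 290 CPM (SD, n = 15).

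Wnk2 had the groups that lay farthest apart, which is what it was chosen for. It was counted in every embryo, with 5 to 262 counts. Control-generated embryos ran from 8.99 CPM in embryo 4 through a median of 39.3 to 95.8 CPM in embryo 14. SER-generated embryos ran from 40.8 through a median of 65.7 to 134 CPM. The control median was exceeded by all 15 SER-generated embryos, and 10 of 16 control-generated embryos lay below the lowest SER-generated embryo. Control embryo 14 was the one control above the SER median. The means were 41.2 ± 19.5 CPM (SD, n = 16) and 74.7 ± 26.7 CPM (SD, n = 15), a ratio of 1.81. Each library is a whole embryo, in which more RNA of a gene and less RNA of all others cannot be told apart, nor can the cells of the embryo.

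Wnk3, which is X-linked, was at 0 in 1 embryo of each group and reached 54.6 CPM among control and 42.5 CPM among SER embryos. The medians were 10.3 and 10.2 CPM, and the groups overlapped throughout. Wnk4, known for its part in salt handling in the kidney, was hardly counted, with 129 counts in all 31 embryos together. No count was found in 5 control- and 3 SER-generated embryos, and the level reached no more than 7.61 and 10.7 CPM.

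Oxsr1, the OSR1 kinase, was at 0 in control embryo 4 and SER embryo 15 and counted in each of the other 29. The median control-generated embryo was at 27.4 CPM and the median SER-generated embryo at 41.8, with highest values of 73.7 and 71.8, so that no SER-generated embryo lay above the highest control. Stk39, the SPAK kinase, ran from 1.23 through a median of 13.0 to 51.8 CPM in the control group and from 0 through 8.67 to 37.5 CPM in the SER group. It was the one member of the 6 that passed the filter on low counts whose mean was lower in SER-generated embryos, at 9.55 ± 9.50 CPM (SD, n = 15) against 15.0 ± 13.0 CPM (SD, n = 16). Its highest value was again that of control embryo 14.

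Slc12a2, which encodes the chloride importer NKCC1, ran from 3.60 CPM in control embryo 4 through a median of 110 to 364 CPM in control-generated embryos. In SER-generated embryos, it ran from 0 in embryo 15 through a median of 205 to 516 CPM. A single SER-generated embryo lay above the highest control. Means were 143 ± 97.4 CPM (SD, n = 16) and 213 ± 116 CPM (SD, n = 15). Slc12a4, the exporter KCC1, had 70 counts in all and none in 9 control- and 6 SER-generated embryos, where it was not detectable at this depth.

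**Figure D2:**
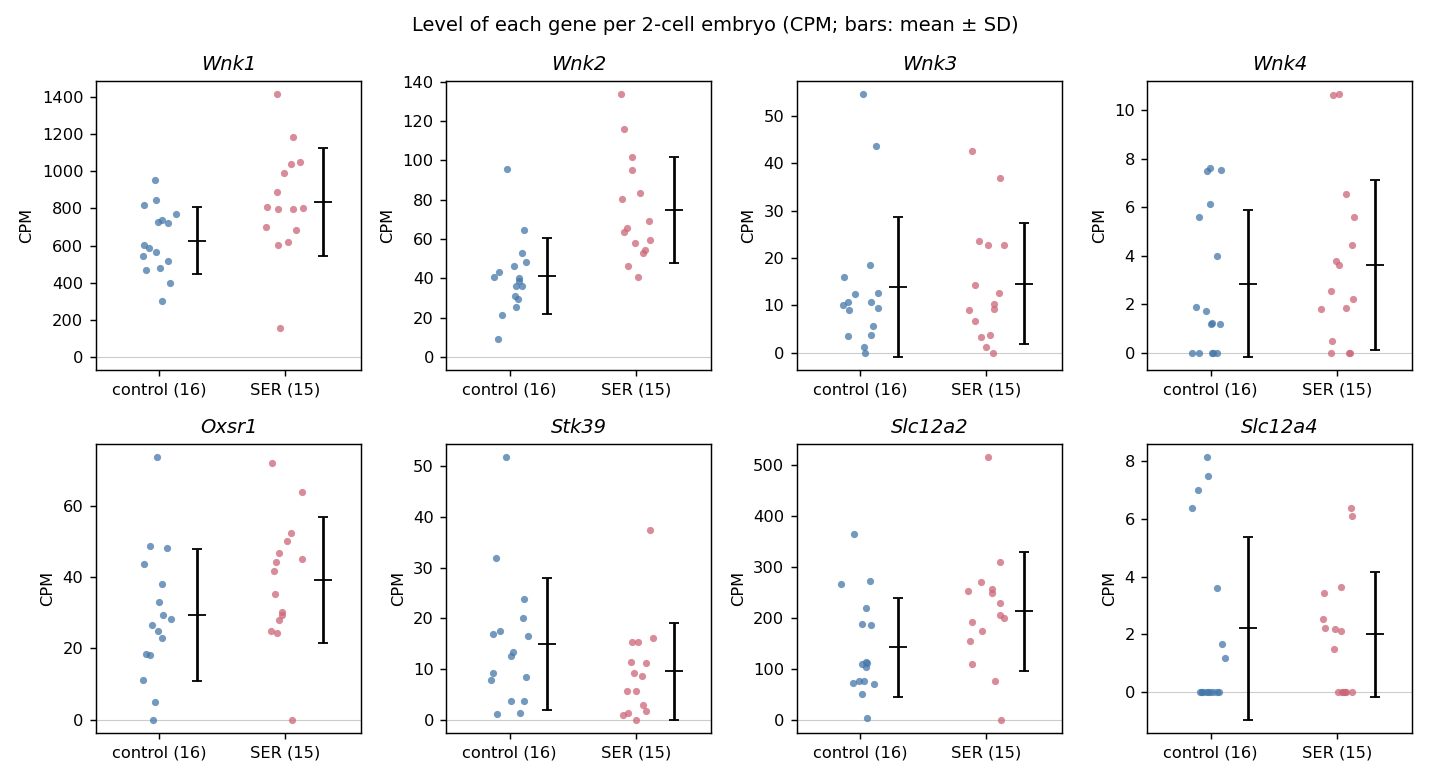
Level of each of the 8 genes in CPM (vertical axes, linear, a separate scale per gene), 1 point per embryo in 16 control (blue) and 15 SER (red) embryos, with the mean and SD beside the points. For Wnk2, 10 of 16 control embryos lie below the lowest SER embryo at 40.8 CPM, while the other genes overlap over more of their range.

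Differences between the groups are given as a description, since the contrast was known when the genes were chosen. In edgeR's quasi-likelihood fit, the log2 difference (SER minus control) was 0.85 (SE 0.24) for Wnk2 and 0.41 (SE 0.20) for Wnk1. It was 0.40 (SE 0.42) for Oxsr1, 0.57 (SE 0.42) for Slc12a2, 0.05 (SE 0.54) for Wnk3 and −0.62 (SE 0.51) for Stk39, beside a median of 0.02 over all 8571 genes tested. Wnk4 (0.33, SE 0.77) and Slc12a4 (−0.16, SE 0.90) failed the filter and were taken from the fit of all genes. Of the 6 members tested, 5 had an estimate above 0, as had 4515 of the 8571 genes.

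No member was called at an adjusted p under 0.1 in this fit, in which 0 of 8571 genes (0.0%) were called and 491 had an unadjusted p under 0.05. Wnk2 was called in 4 other fits. These were edgeR without the filter, which called 504 of 17803 genes (2.83%), DESeq2, which called 49 of 7241 (0.677%), limma voom with sample quality weights, which called 848 of 8571 (9.89%), and edgeR with 3 clusters of embryos estimated from the counts as a factor, which called 41 of 8571 (0.478%). Slc12a2 was called by limma voom as well. The other members were called by none of these fits, of which DESeq2 gave an adjusted p for 4 of the 8 genes. These counts come from the contrast by which the members were picked, and nothing is read from them.

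Leaving out each embryo in turn moved the Wnk2 difference between 0.77, without SER embryo 1, and 0.98, without control embryo 14. For Wnk1, the range was 0.34 to 0.49, for Oxsr1 0.30 to 0.55, and for Slc12a2 0.42 to 0.72. The Wnk4 difference ran from 0.11, without SER embryo 3, to 0.51. The Stk39 difference stayed below 0, from −0.96 to −0.37. The sign of Wnk3 changed, from −0.16 to 0.38, and so did that of Slc12a4, from −0.36 to 0.20. Between the other fits, Wnk3 ran from −0.05 with the estimated clusters to 0.71 with limma voom, which also gave 0.97 for Slc12a2.

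**Figure D3:**
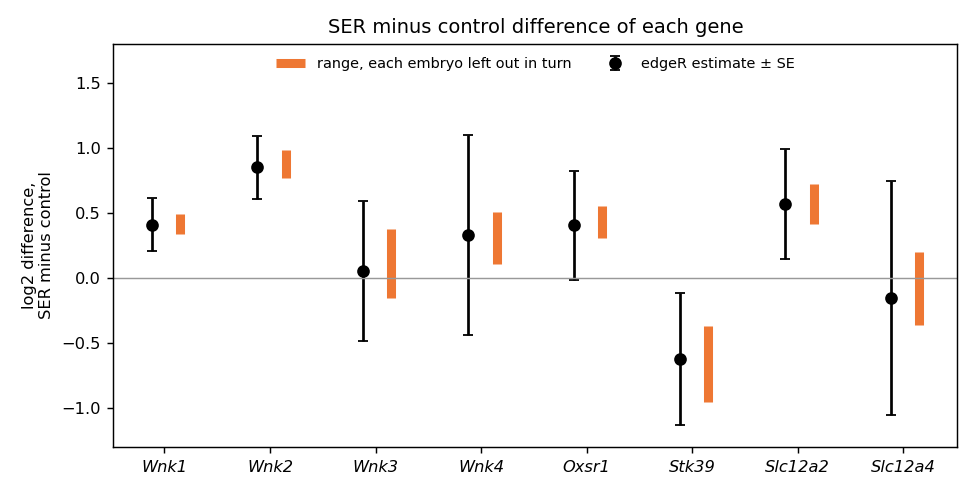
Log2 difference (SER minus control, vertical axis) of each gene from edgeR (black point, bar ± SE), with the range of estimates when each of the 31 embryos was left out in turn (orange bar). The Wnk2 estimate is 0.85 and stays between 0.77 and 0.98, while the ranges of Wnk3 and Slc12a4 cross 0.

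The members differed in how much they varied between embryos of the same group. The coefficient of variation of Wnk1 was 28.4% in control- and 34.7% in SER-generated embryos, where counting error alone would give 4.22% and 3.02%. For Wnk2, it was 47.3% and 35.8%, against 16.4% and 10.1% from counting. Slc12a2 had 68.3% and 54.7%, against 8.84% and 5.99%, and Oxsr1 62.7% and 45.1%, against 19.5% and 14.0%. The biological coefficient of variation that edgeR estimated within the groups was low for Wnk1 and Wnk2, at percentiles 5.26 and 10.7 of the tested genes. It was near the middle for Oxsr1 (percentile 58.1) and Slc12a2 (67.5) and high for Stk39 (80.2) and Wnk3 (87.1). Wnk4 and Slc12a4 did not enter this estimate. Their coefficients were 106% and 96.4% for Wnk4, against 62.5% and 45.9% from counting, and 143% and 108% for Slc12a4, against 70.9% and 61.6%. In average level, Wnk1 (percentile 98.8 of the tested genes), Slc12a2 (84.3) and Wnk2 (53.0) were above Oxsr1 (36.0), Wnk3 (9.85) and Stk39 (6.195). How far the biological coefficient of variation follows level was not tested. Wnk2 was chosen for its difference between the groups, so its low variation within them may not be independent of that choice.

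In control embryo 4 and SER embryo 15, the embryos of low zygotic score, some members were nearly missing and others were not. Slc12a2 had 2 counts (3.60 CPM) and 0 of 2567720 counts, which allows up to 1.25 CPM, against 50.3 to 516 CPM in the other 29 embryos. Oxsr1 was at 0 in both, which allows up to 5.39 CPM in control embryo 4 and 1.25 CPM in SER embryo 15, against 4.91 to 73.7 CPM. Wnk1 was at 300 and 157 CPM, below the 396 to 1414 CPM of the others.

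Wnk2 did not separate these embryos in the same way. It was at 8.99 CPM in control embryo 4, the lowest of all, and at 54.4 CPM in SER embryo 15, within the 21.3 to 134 CPM of the other 29. Stk39, at 12.6 and 16.2 CPM, and Wnk3, at 8.99 and 3.74 CPM, were inside the range of the others too. These embryos are 1 of each group, and without them the log2 difference between the groups was 0.81 for Wnk2.

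The level of each member, as log2(CPM + 1), was set against the zygotic and the oocyte score, 16 relations in all. Over 31 embryos, 7 of the 16 passed an adjusted p of 0.05 by Pearson's r and 1, Slc12a2 with the zygotic score, by Spearman's rho (permutation test, adjusted p = 0.00816). Without control embryo 4 and SER embryo 15, the embryos farthest from the median of both scores, none passed by either (smallest adjusted p = 0.0853, permutation tests). As these 2 embryos form a cluster of their own, no pooled r is given.

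Within the other 29 embryos, Slc12a2 had the strongest relation to the zygotic score, with r = 0.50 and Spearman's rho = 0.51 (permutation tests with 100000 resamples, p = 0.00533 and 0.00567, adjusted p = 0.0853 and 0.0907). With the group means removed, r was 0.53 (permutation test, adjusted p = 0.0459) and rho 0.47 (permutation test, adjusted p = 0.184). For Wnk2, r was 0.25 and rho 0.22 (permutation tests, adjusted p = 0.746 and 0.736). Wnk1 (r = −0.06) and Oxsr1 (r = 0.05) had adjusted p = 0.776 in the same permutation tests. No relation passed within the estimated cluster of 21 embryos or that of 8.

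**Figure D4:**
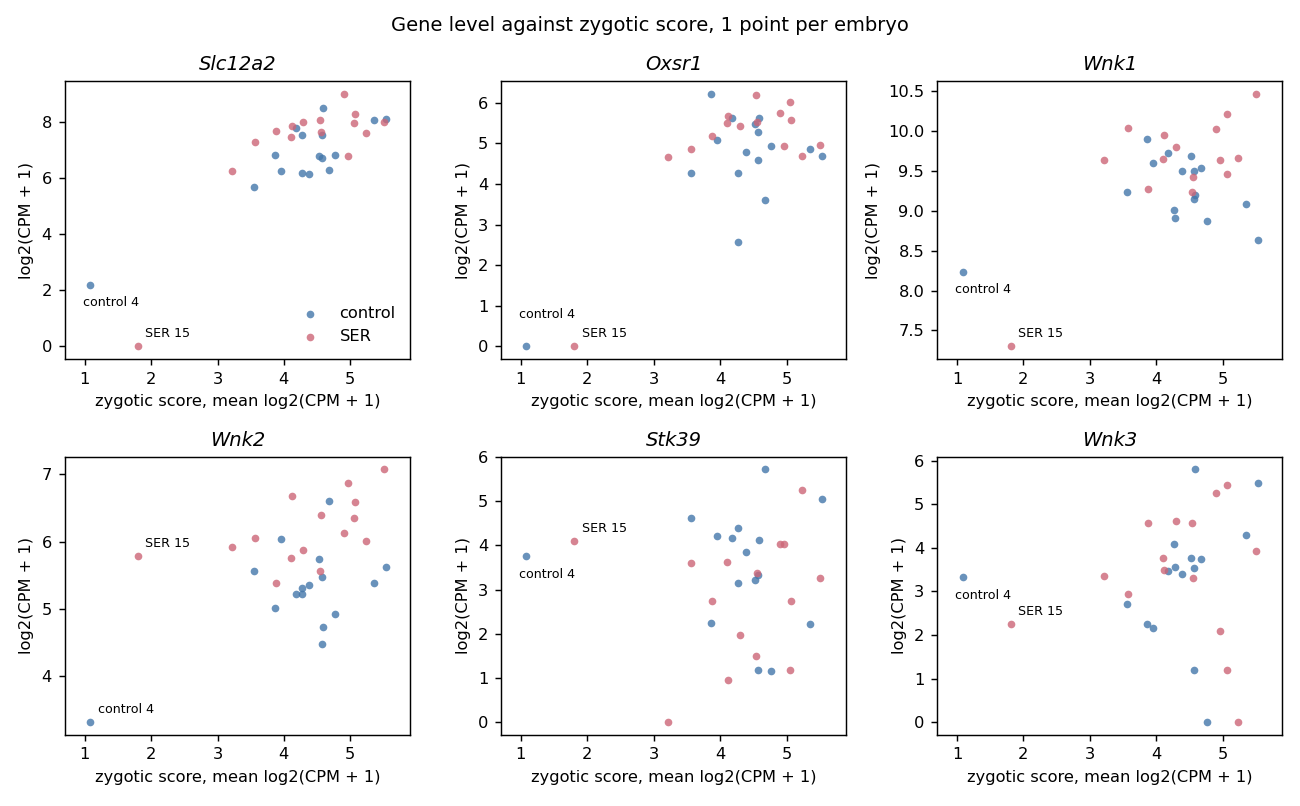
Level of 6 genes as log2(CPM + 1) (vertical axes) against the zygotic score (horizontal axes, mean log2(CPM + 1) over 20 transcripts of genome activation), 1 point per embryo, control in blue and SER in red. Control embryo 4 and SER embryo 15, at scores of 1.09 and 1.81, are at 0 for Oxsr1 and lowest for Wnk1. They are also lowest for Slc12a2, at 3.60 and 0 CPM, while SER embryo 15 is among the other embryos for Wnk2.

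Pairs of members were compared across embryos after removal of the group means, an addition made after the values were seen. Over 31 embryos, 4 of 28 pairs passed an adjusted p of 0.05 by Pearson's r and 2 by Spearman's rho. Without control embryo 4 and SER embryo 15, but with the group means of all 31 embryos removed, 0 pairs passed by Pearson's r and 1 by rho. That pair was Wnk3 and Slc12a2, with rho = 0.57 (permutation test, adjusted p = 0.0473) and r = 0.45 (permutation test, adjusted p = 0.163). Embryos 2 and 3 were the highest of each group for both genes. Wnk3 was at 54.6 and 43.8 CPM in these control and 37.0 and 42.5 CPM in these SER embryos. Slc12a2 was at 364 and 273, and at 516 and 310 CPM. The permutations treat embryos as independent, and a shared batch was not tested. Wnk1 and Wnk2 had r = 0.40 and rho = 0.37 in the same 29 embryos (permutation tests, adjusted p = 0.201 and 0.438), and Oxsr1 and Slc12a2 had r = 0.45 and rho = 0.43 (permutation tests, adjusted p = 0.163 and 0.328).

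Among the 8570 other tested genes, the pattern most like that of Wnk2 within the groups was that of Synm, an intermediate filament protein, with Spearman's rho = 0.68 over 31 embryos. M6pr, a receptor for mannose 6-phosphate (0.68), Ddit3, the stress-induced factor CHOP (0.67), Usp17lc, a deubiquitinase of the zygotic list (0.64), and Dbp, a clock output factor (0.64), followed. Without control embryo 4 and SER embryo 15, Ddit3 ranked 1 with rho = 0.66, and M6pr ranked 5, Synm 10, Dbp 16 and Usp17lc 30. For Wnk1, the most similar genes were Zcchc14 (0.71), the nuclear pore gene Pom121 (0.70), Fndc3b (0.69), the centriole gene C2cd3 (0.69) and the kinase Taok1 (0.67), which ranked 5, 4, 10, 9 and 16 without those embryos. These were picked as the highest of all genes and are given without a test. The ranks without those embryos used group means of all 31.

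The other genes of the pathway were taken from 6 lists with 55 genes. None of the 36 that passed the filter was called by edgeR at an adjusted p under 0.1, and 2 had an unadjusted p under 0.05. Their median log2 difference was 0.08, beside 0.02 over all genes tested. Estimates were above 0 for 22 of them, and for 4515 of all 8571 genes. The genes named from each list are among the 2 with the highest level per kb.

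Of 11 partners and regulators of the kinases, 9 were tested, 4 with a higher and 5 with a lower estimate in SER-generated embryos. Nrbp1, a pseudokinase related to the WNK kinases, was at 78.0 ± 32.0 CPM per kb (SD, n = 31), with a log2 difference of 0.31 (SE 0.24). Tsc22d1, of a family of leucine zipper proteins that bind it, was at 41.6 ± 28.2 CPM per kb, with −0.29 (SE 0.27; edgeR, adjusted p = 0.951). Tsc22d1 was highest in control embryo 4 (1050 CPM) and SER embryo 15 (1377 CPM), against at most 693 CPM in the other 29. Its difference was −0.14 without control embryo 4, −0.65 without SER embryo 15 and −0.50 without both. It was called by limma voom with quality weights, at −0.75 (adjusted p = 0.0140). That fit called 2 of 36 pathway genes and 9.89% of all genes tested.

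WNK proteins are degraded through a cullin-3 ligase with KLHL adaptors. Cul3 was at 74.8 ± 77.8 CPM per kb and Rbx1, the RING subunit, at 36.4 ± 36.0 (SD, n = 31). Cul3 had 16.2 and 4.15 CPM in control embryo 4 and SER embryo 15, against 60.9 to 1511 CPM in the others, and so was low where Slc12a2 and Oxsr1 were low. Its log2 difference of 0.02 (SE 0.49) changed sign when single embryos were left out, from −0.22 to 0.36. Rbx1 had −0.85 (SE 0.29; edgeR, adjusted p = 0.561), with a control mean of 211 ± 219 CPM (SD, n = 16) and 989 CPM in the highest embryo. Without control embryo 3 it was −0.44, with the replicate block −0.50 and by limma voom −0.26. The 5 genes tested in this list had 2 higher and 3 lower estimates.

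Of 7 other SLC12 transporters, 2 passed the filter. Slc12a9 was at 2.75 ± 1.95 CPM per kb (SD, n = 31), with a log2 difference of 0.51 (SE 0.52; edgeR, adjusted p = 0.958). Slc12a1 and Slc12a3, the kidney cotransporters that WNK signalling controls, had counts in 3 and 2 embryos (named for this role, after their values were seen).

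Of 20 chloride channels, volume-regulated channels and exchangers, 12 were tested, 10 with a higher and 2 with a lower estimate (median 0.17). None was called by edgeR. Estimates were higher for 4515 of all 8571 genes, and genes measured in the same embryos are not independent. Clns1a, known both from swelling-activated chloride currents and from the assembly of splicing particles, was at 32.3 ± 20.98 CPM per kb, and Lrrc8a, the required subunit of the volume-regulated anion channel, at 20.8 ± 11.1 (SD, n = 31). Lrrc8a had a log2 difference of 0.16 (SE 0.27) and Clns1a of 0.19 (SE 0.33; edgeR, adjusted p = 0.975 and 0.976). Clns1a was called by limma voom, at 0.78 (adjusted p = 0.0580), in the fit that called 9.89% of all genes tested.

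The glycine transporter Slc6a9 led the organic osmolyte transporters with 40.7 ± 32.3 CPM per kb, and Slc6a6, which carries taurine and beta-alanine, followed at 7.50 ± 5.64 (SD, n = 31). Slc6a9 was at 433 CPM in control embryo 4 and 750 CPM in SER embryo 15, the latter above the 11.1 to 464 CPM of the other 29. Its log2 difference was 0.08 (SE 0.41), and −0.10 without these embryos. Slc6a6 had 0.67 (SE 0.39; edgeR, adjusted p = 0.891), and 3 of the 4 tested genes of the list had a higher estimate. Of the sodium pump, which drives the sodium gradient that NKCC1 uses, Atp1b3 was at 72.3 ± 31.1 and Atp1b1 at 11.3 ± 4.98 CPM per kb, with log2 differences of −0.10 (SE 0.23) and −0.29 (SE 0.28; edgeR, adjusted p = 0.981 and 0.950). Of its 4 tested genes, 1 had a higher estimate.

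**Figure D5:**
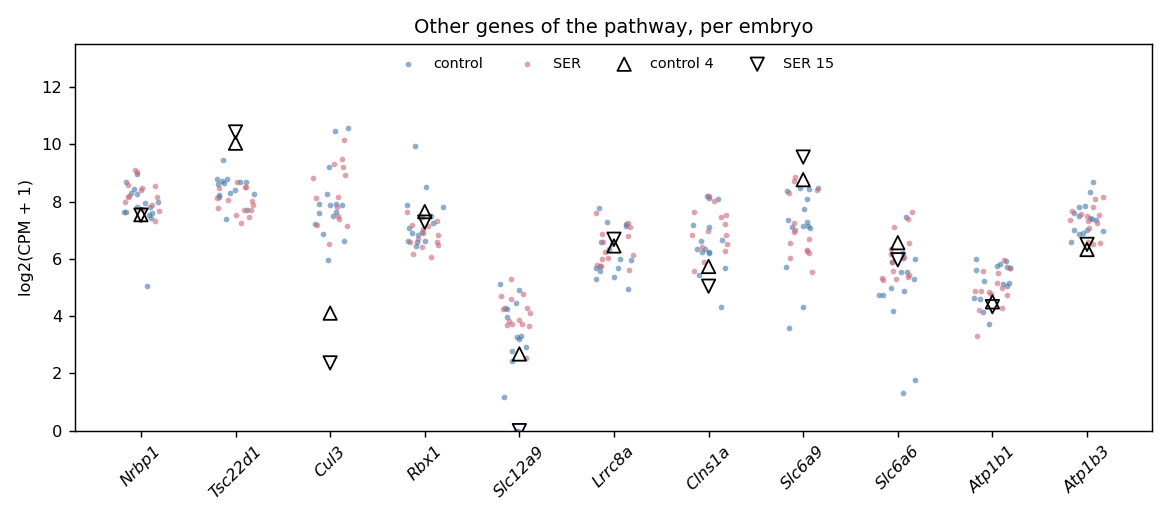
Level of 11 other pathway genes, from the 2 most abundant per kb of each list, as log2(CPM + 1) (vertical axis), 1 point per embryo, control in blue and SER in red. Open triangles mark control embryo 4 (upward) and SER embryo 15 (downward), which are lowest for Cul3 and highest for Tsc22d1, while SER embryo 15 is also highest for Slc6a9.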

How the data were processed

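The authors separated Smart-seq3 reads with a molecular identifier from internal reads, aligned both with STAR (mm10, per the labels), took out duplicates by UMI-tools and Picard, and after merging counted them by featureCounts. The deposited table gives raw counts of 20544 gene symbols in 31 embryos. Annotation and strand setting are not given in the sources used here. The authors' ComBat-seq correction could not be repeated, as batches are not given per embryo.

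CPM used library sizes scaled by TMM, and CPM per kb the union of exons in GENCODE M21 (20013 symbols matched). The group comparison was a quasi-likelihood test in edgeR (version 4.0.16, under R 4.3.3) after filterByExpr (minimum count 10, minimum total 15), with no covariates and Benjamini-Hochberg adjustment at 0.1. Levels of neighbouring genes were compared by sign-flip tests on log2(CPM per kb + 0.1), and relations to scores by permutation tests (SciPy 1.17.1, 100000 resamples) on log2(CPM + 1) at an adjusted p of 0.05. The design named all 31 embryos for the relations. Values are given for 29, because control embryo 4 and SER embryo 15 stood apart. Group means, where removed, were taken over all 31 embryos before any embryo was left out.

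Members, lists and tests were chosen with earlier results of these data known. With exceptions said in the text, named pathway genes were the 2 highest per kb in each list, 1 of which is not reported here, and any called gene, and the 5 genes most similar to Wnk2 and to Wnk1. Alternatives were DESeq2 1.42.0 and its size factors, no filter, a stricter filter (10 counts in 15 embryos), limma 3.58.1 voom with quality weights, 3 estimated clusters (k-means, 1000 genes), the replicate number as a block, thinning to 532945 counts, other scalings, lengths and pseudocounts, each group or embryo left out, and, added after seeing the data, leaving out both embryos that stood apart and the zygotic score as a covariate. The count test was also run on simulated counts of independent embryos, without batches or shared parents, which cannot show how it performs in these data. Limits from a count of 0 use 3 counts, and counting error is a lower bound, since internal reads carry no molecular identifier. Promoter windows are from RefSeq (GRCm38.p6).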

Additional observations from a re-analysis of the deposited data

How the results depend on the processing

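The number of genes called in edgeR (0 of 8571) became 504 without the filter, 49 with DESeq2, 848 with limma voom and 41 with the estimated clusters, and stayed at 0 under the other alternatives. For pathway genes, limma voom called 2 of 36, beside 848 of 8571 genes (9.89%), where every other alternative called 0. Same-numbered embryos of the groups correlated above 0.1 in 8 of 15 pairs and best with their own number in 2 of 15. The median correlation was 0.113 for same-numbered pairs, against 0.0026 over all control-SER pairs. Numbers were taken as names in the main fit, and whether they follow the study's batches was not tested. With the replicate block, 0 genes were called and the Wnk2 difference was 0.97. Over 41 alternatives, the Wnk2 difference ran from 0.77 to 0.98. Among members, signs changed for Wnk3 (−0.050 with clusters, −0.033 with the block, −0.16 to 0.38 with single embryos left out) and Slc12a4 (0.18 with limma voom, 0.29 with the block, 0.17 with thinned counts, −0.36 to 0.20 with single embryos left out). Among pathway genes, they changed for Cul3 (−0.031 with clusters, −0.22 to 0.36 with single embryos left out), Slc6a9 (−0.75 with limma voom, −0.26 with clusters, −0.10 without control embryo 4 and SER embryo 15, −0.21 to 0.18 with single embryos left out) and Atp1b3 (0.12 with limma voom, −0.18 to 0.023 with single embryos left out), none of them called. In the order of levels, 5 of 7 steps passed, against 3 in control-generated embryos alone, 2 in SER-generated embryos alone and 3 without control embryo 4 and SER embryo 15. Of 16 relations to the scores, 7 passed, against 1 in control- and 1 in SER-generated embryos, 0 within cluster 1, 0 within cluster 2, 0 without the 2 farthest embryos, and 1 without them with group means removed. Against the zygotic score, r was −0.020 for Oxsr1 within cluster 1 and 0.36 for Wnk1 within cluster 2, opposite in sign to the value over 29 embryos. Fewer embryos enter each of these alternatives for the order and the relations. What caused the changes was not tested. Wnk4 and Slc12a4 failed the stricter filter, and DESeq2 gave them, Wnk3 and Stk39 no adjusted p. Depth limits Wnk4 and Slc12a4, which had 129 and 70 counts in all.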
